A study of Paxillus involutus with 18 samples.

Results

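The isotigs described here are 59 of the 12214 transcript models (isotigs) of the fungus *Paxillus involutus* on an expression array. An isotig is a transcript assembled from sequencing reads, and several isotigs can come from one gene. The 59 were chosen by their own values: in each of 4 test media their mean level was at least 1 higher, on the log2 scale, than the mean of the 3 control arrays of the same slide, which is a change of at least 2-fold. In all, 65 isotigs passed this threshold, and 6 of them were set aside. These 6 are listed in the study as a tyrosinase (paxillus_222), phenylalanine ammonia lyases (paxillus_5484 and paxillus_5485), a haem peroxidase (paxillus_5582) and laccases (paxillus_7916 and paxillus_8102). Because the 59 were selected on their changes against the control, those changes are given as a description without a test.

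*Pa. involutus* is an ectomycorrhizal fungus: it lives on tree roots, receives sugar from its host and returns nitrogen and other nutrients that it takes up from the soil. Much of the nitrogen in forest soil is bound in organic matter, which the fungus meets as plant litter and its decomposition products. A mineral medium with glucose and ammonium, by contrast, offers carbon and nitrogen that need no breakdown. The array file names no gene for any isotig, none of the isotig identifiers matched the 18033 genes of the RefSeq table of the species, and the text of the study gives no function for any of the 59. They are therefore described by their identifiers and patterns, with no function.

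Mycelium of the wild-type strain ATCC 200175 was grown on glass beads for 9 days in modified Melin-Norkrans medium (MMN), starved of nitrogen for 24 h and moved for 7 days to a new medium. The new media were a hot-water extract of forest litter (FH), a hot-water (MH) or cold-water (MC) extract of composted maize, a solution of carboxymethyl cellulose (CMC), which is a soluble cellulose derivative, and fresh MMN as the control. The extracts and CMC were also given glucose, and the sources used here do not say whether the CMC medium held mineral nitrogen. Each of the 18 NimbleGen arrays lay on 1 of 2 slides. Slide 1 carried FH, MH and its own MMN control and slide 2 carried MC, CMC and a second MMN control, with 3 arrays a group. The labels call the arrays of a group biological replicates and do not tell where in the culture their paths parted, so p-values measure only the spread between these arrays. All groups share 1 strain and 1 time point.

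One array goes against part of its label. The title, source and medium of MC replicate 3 all say MC, but its description speaks of MH. It was kept as MC, and over all isotigs its deviations had a mean Pearson r of 0.83 with the remaining MC arrays and 0.41 with MH. Without it, 60 isotigs passed in all 4 media, and all 59 were among them. The array medians lay between 11.45 and 11.47, and the lowest correlation between replicates was over 0.99 in each group. The 59 isotigs were well within the measured range: their values ran from 9.24 to 14.41, against 3.69 to 3.85 for the random control probes. All 59 were read by 10 probes, as were 12203 of all isotigs.

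The 59 isotigs were higher than in MMN in every medium, as the rule requires, but by unequal amounts. The median change was 1.29 in FH (2.44-fold), 1.77 in MH (3.41-fold), 1.64 in MC (3.11-fold) and 1.49 in CMC (2.81-fold). The middle of the list, between its lower and upper quartile, lay between 1.14 and 1.55 in FH, 1.54 and 2.04 in MH, 1.41 and 1.83 in MC, and 1.32 and 1.72 in CMC. The median over all isotigs was -0.06, -0.06, -0.07 and -0.07, respectively. Array values are relative to the RNA of the whole mycelium, so more hyphae of one kind and more transcript per hypha cannot be told apart.

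How selective each medium was differed widely. At least 2-fold higher levels were reached by 0.966% of all isotigs in FH, 4.50% in MH, 2.82% in MC and 1.66% in CMC. In numbers, these were 118, 550, 344 and 203 isotigs, and the 59 made up 50.0% of those in FH but only 10.7% of those in MH, 17.2% in MC and 29.1% in CMC. FH was thus the most selective medium: 77 isotigs passed in the other 3 media and missed only FH, compared with 13 that missed only MC, 7 that missed only CMC and 0 that missed only MH. Altogether 667 isotigs passed in at least 1 medium, 321 in at least 2 and 162 in at least 3.

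The edge of the list is not a gap in the data. Just inside were paxillus_11533 with a smallest change of 1.0075, paxillus_1770 with 1.0057 and paxillus_5559 with 1.0049, and just outside were paxillus_423 with 0.991, paxillus_3759 with 0.9893 and paxillus_1651 with 0.986. FH held the smallest change of all 6. For paxillus_1651 the changes in the other media were far from the threshold in MH (2.62) and MC (2.56) and close to it in CMC (1.11). The number of isotigs, the 6 set-aside ones not counted, fell steeply with the threshold on the smallest change, from 451 at 0.5 and 99 at 0.9 to 59 at 1, 45 at 1.1, 14 at 1.5 and 2 at 2.

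**Figure D1:**
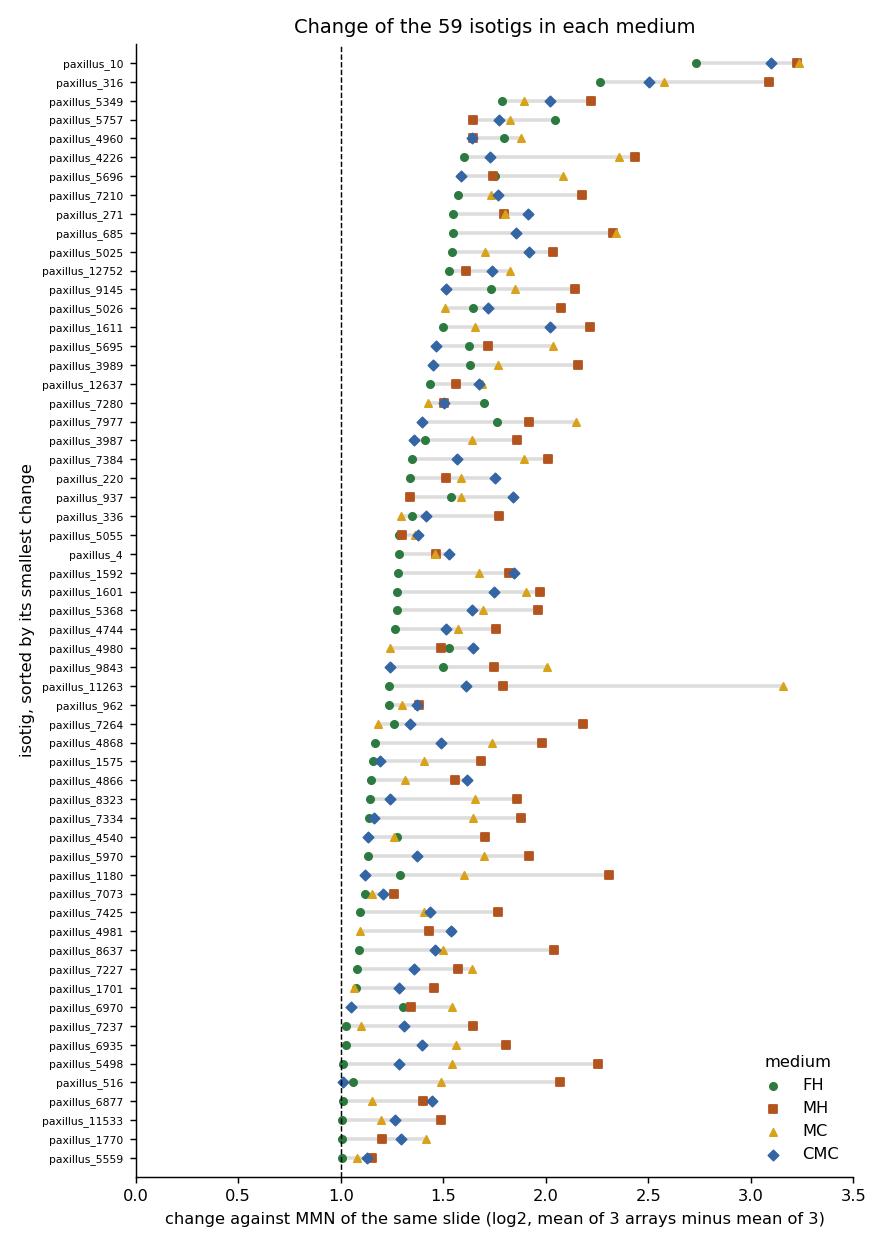
Change of each of the 59 isotigs against the MMN arrays of the same slide (log2 scale, horizontal axis), 1 row per isotig and 1 point per medium, with a line at the threshold of 1. The FH points crowd the threshold, with a median of 1.29, while the MH points have a median of 1.77.

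No array of any test medium overlapped the controls. For all 59 isotigs the 12 arrays of the test media lay above all 6 MMN arrays of both slides, and the smallest gap between a medium and the MMN arrays of its slide was 0.66, for paxillus_516 in FH. Over all isotigs, the 3 arrays lay above the 3 MMN arrays for 23.0% in FH, 32.9% in MH, 26.3% in MC and 25.8% in CMC. As the rule used these contrasts, nothing is read from the counts. A level over 4-fold that of MMN was reached by 3 of the 59 in FH, 17 in MH, 9 in MC and 4 in CMC, against 7, 30, 33 and 4 of all isotigs. The 3 highest changes belonged to paxillus_10, paxillus_316 and paxillus_5757 in FH, to paxillus_10, paxillus_316 and paxillus_4226 in MH, to paxillus_10, paxillus_11263 and paxillus_316 in MC, and to paxillus_10, paxillus_316 and paxillus_1611 in CMC. A level over 4-fold was reached in at least 1 medium by 23 of the 59 and in all 4 media by 2 of them.

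These 2 were paxillus_10 and paxillus_316. The MMN levels of paxillus_10 were 10.40, 10.26 and 10.73 on slide 1 and 10.34, 10.17 and 10.93 on slide 2. Its levels were 13.16, 13.33 and 13.09 in FH, 13.69, 13.73 and 13.65 in MH, 13.65, 13.77 and 13.73 in MC, and 13.58, 13.63 and 13.52 in CMC. In level, MH, MC and CMC thus lay close together with FH below them, and the MMN arrays spread more than those of any other medium. The changes were 2.73, 3.22, 3.24 and 3.10, or 6.64-fold, 9.35-fold, 9.43-fold and 8.56-fold.

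The second, paxillus_316, started from one of the lowest control levels of the list, at 9.30, 9.24 and 10.03 on slide 1 and 9.35, 9.28 and 9.88 on slide 2. It read 11.83, 11.87 and 11.67 in FH, 12.57, 12.65 and 12.61 in MH, 11.86, 12.16 and 12.22 in MC, and 11.90, 12.14 and 11.97 in CMC. Here MH stood above the other 3 media, among which MC overlapped both FH and CMC. In MMN, replicate 3 was the highest on both slides, as it was for paxillus_10. The changes were 2.27 in FH, 3.09 in MH, 2.58 in MC and 2.50 in CMC.

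The other 8 of the 10 isotigs with the highest smallest change had changes of 1.55 to 2.43. The nearest to 4-fold everywhere was paxillus_5349, with 1.79 in FH, 2.22 in MH, 1.89 in MC and 2.02 in CMC. The 4 changes spanned 0.24 in paxillus_4960 (1.80, 1.65, 1.88 and 1.64, in the same order) and 0.37 in paxillus_271 (1.55, 1.80, 1.80 and 1.91), and each passed an adjusted p under 0.01 (limma) in 1 of the comparisons between media. Some of the others leaned to the compost extracts: paxillus_4226 had 1.60, 2.43, 2.36 and 1.73, and paxillus_685 had 1.55, 2.33, 2.34 and 1.85. MC alone stood higher for paxillus_5696 (1.75, 1.74, 2.09 and 1.59), and MH alone for paxillus_7210 (1.57, 2.17, 1.73 and 1.77). The remaining one, paxillus_5757, was one of only 2 isotigs of the list with its highest change in FH. Its mean level was not highest there, at 12.945 in FH, 13.03 in MC and 12.98 in CMC, and its MMN mean was 0.30 higher on slide 2. The changes in MC and CMC were not separated from that in FH, with differences of -0.22 (limma adjusted p = 0.23) and -0.27 (limma adjusted p = 0.22).

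**Figure D2:**
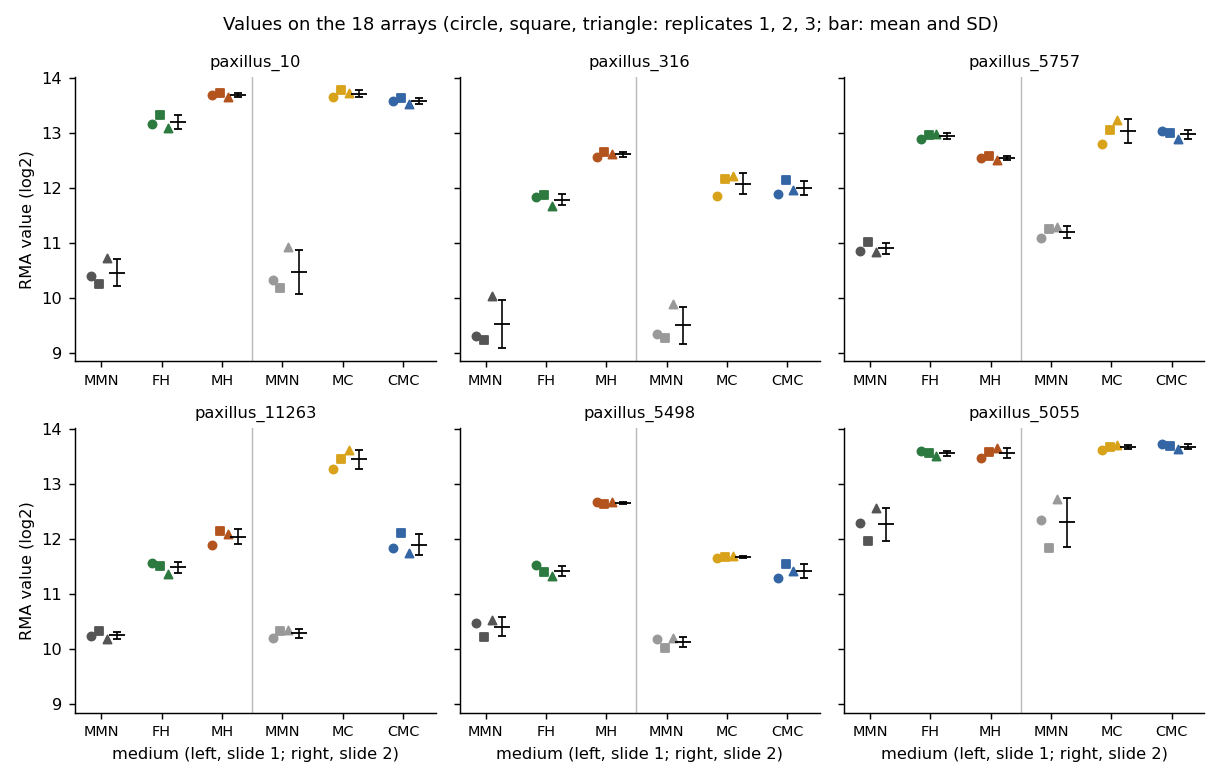
Level on each of the 18 arrays (deposited log2 value, vertical axis) of paxillus_10, paxillus_316, paxillus_5757, paxillus_11263, paxillus_5498 and paxillus_5055, with points for arrays and bars for group means. The arrays of all test media lie above all MMN arrays, and the order of the media differs from isotig to isotig, with MC alone at the top for paxillus_11263.

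The medium with the highest change was MH for 34 of the 59 isotigs, MC for 13, CMC for 10 and FH for 2, and the lowest was FH for 38, CMC for 12, MC for 7 and MH for 2. The most frequent order, from high to low, was MH, MC, CMC and FH, held by 14 isotigs, followed by MH, CMC, MC and FH with 10. These ranks come from the changes that the rule cut, and were not set beside the ranks over all isotigs. Some rest on very small differences, such as 3.24 in MC against 3.22 in MH for paxillus_10 (limma adjusted p = 0.97). The 4 changes of an isotig spanned a median of 0.56. They lay within 0.5 for 25 isotigs and within 0.3 for 9, while 5 isotigs spanned at least 1. Examples of isotigs whose highest change was in CMC are paxillus_937 (1.54 in FH, 1.34 in MH, 1.59 in MC and 1.84 in CMC), paxillus_220 (1.34, 1.51, 1.59 and 1.75) and paxillus_1592 (1.28, 1.82, 1.67 and 1.84).

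The comparisons between media were tested, since the rule set no threshold on them. They use the same arrays as the rule, however, and because FH was the medium that most isotigs failed, a list cut at the same value in all media collects isotigs whose FH change lies near the floor. That MH, MC or CMC lay above FH is therefore not independent of the choice. The rule also cut the changes in CMC, MC and MH, and CMC was the next hardest to pass, with 203 isotigs against 344 in MC and 550 in MH. Directions in the comparisons among these media are thus not independent of the choice either. A limma model was fitted to all 12214 isotigs, with adjustment by Benjamini-Hochberg in each comparison. A call needed an adjusted p under 0.01 and a difference over 2-fold. Across slides, each medium was first set against the MMN mean of its slide and the changes were then compared.

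Between the hot-water extracts of compost and litter (MH minus FH), 3 of the 59 were called, all higher in MH, against 1.11% of all isotigs called in either direction. By the adjusted p alone, 39 were higher in MH and 1 was lower, where 22.0% of all isotigs were higher and 26.9% lower. The median difference over the 59 was 0.45. The 3 called were paxillus_5498, paxillus_1180 and paxillus_516. The differences of the last 2 were close to 2-fold, and only 1 isotig was called when FH replicate 3 or MH replicate 3 was left out.

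The levels of paxillus_5498 were 11.53, 11.41 and 11.34 in FH and 12.68, 12.64 and 12.68 in MH, from MMN levels of 10.49, 10.22 and 10.54. The MH arrays lay well clear of the FH arrays, which were themselves above all MMN arrays. The difference was 1.24 (SE 0.08, 95% interval 1.08 to 1.41, n = 3 arrays a medium, limma adjusted p = 1.6e-09). In paxillus_1180, FH read 12.11, 11.94 and 11.91 and MH 12.85, 13.06 and 13.11, a difference of 1.02 (SE 0.09, limma adjusted p = 4.8e-08). For paxillus_516 the difference was 1.01 (SE 0.12, limma adjusted p = 3.5e-06).

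MH lay above FH for 52 of the 59. Among the rest, only paxillus_5757 passed the adjusted p, at 12.54, 12.58 and 12.51 in MH against 12.89, 12.96 and 12.99 in FH. The groups did not overlap, and the difference was -0.40 (SE 0.09, limma adjusted p = 0.00063). Its levels on slide 2 were 12.81, 13.05 and 13.24 in MC and 13.04, 13.00 and 12.89 in CMC, so that these media overlapped. The strongest isotigs also differed between the extracts, paxillus_10 by 0.49 (SE 0.14, limma adjusted p = 0.0059) and paxillus_316 by 0.82 (SE 0.17, limma adjusted p = 0.00054), both higher in MH. For paxillus_10, the changes in MC and CMC did not pass against FH. The differences were 0.50 (limma adjusted p = 0.081) and 0.37 (limma adjusted p = 0.34).

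On slide 2, between cold-water compost extract and cellulose (MC minus CMC), the list was split. One isotig, paxillus_11263, was called and higher in MC, against 1.13% of all isotigs called. By the adjusted p alone, 14 were higher and 3 lower in MC, compared with 8.05% and 8.88% of all isotigs, and the median difference was 0.06. The 17 that passed in either direction became 10 without CMC replicate 1 and 11 without CMC replicate 3. They became 21 without MMN replicate 3 of slide 2 or without dim isotigs.

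The largest difference between media within the list belonged to paxillus_11263. Its MMN levels were 10.24, 10.32 and 10.19 on slide 1 and 10.20, 10.34 and 10.34 on slide 2, which is a narrow range. It reached 11.57, 11.52 and 11.37 in FH, 11.89, 12.14 and 12.09 in MH and 11.84, 12.12 and 11.76 in CMC, but 13.28, 13.45 and 13.62 in MC. All 3 MC arrays, MC replicate 3 included, were over 1 above every array of the other media. MC exceeded CMC by 1.55 (SE 0.10, 95% interval 1.34 to 1.75, limma adjusted p = 1.4e-09). Against the compost of the hot extraction the MC change was higher by 1.37 (SE 0.14, limma adjusted p = 3.2e-06), and against FH by 1.92 (SE 0.14, limma adjusted p = 1.8e-08).

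Other isotigs higher in MC than in CMC were paxillus_9843, by 0.77 (SE 0.06, limma adjusted p = 5.4e-08), and paxillus_7977, by 0.75 (SE 0.08, limma adjusted p = 7.3e-07). Both had their lowest change in CMC, at 1.24 and 1.40. MC lay above CMC for 34 of the 59. Among the rest, the 3 past the adjusted p were paxillus_4981 (difference -0.45), paxillus_4980 (-0.40) and paxillus_6877 (-0.29), of which the first and second carry neighbouring numbers.

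The same compost extracted cold or hot (MC minus MH) gave 1 isotig called higher, paxillus_11263, and 1 called lower, against 0.573% of all isotigs. The lower one, paxillus_7264, had changes of 2.18 in MH and 1.18 in MC and lay at the fold threshold, with a difference of -1.00 (SE 0.13, limma adjusted p = 3.1e-05). By the adjusted p alone, 1 was higher and 9 were lower in MC, where 11.1% of all isotigs were higher and 10.2% lower. The 9 included paxillus_5498 (-0.71) and paxillus_1180 (-0.70), which were also called between MH and FH. The median difference was -0.22. Only 1 isotig was called without replicate 1 or 2 of MMN on slide 1, MH replicate 2 or 3, MMN replicate 3 on slide 2 or MC replicate 1, and the count by adjusted p was 6 without MH replicate 2. It was 15 with the MMN cultures as a block or without MMN replicate 3 of slide 1, and 23 with media levels compared directly, without MMN.

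Between MC and FH, 1 isotig was called, again paxillus_11263, against 1.40% of all isotigs. By adjusted p, 12 were higher in MC and 0 lower, against 6.04% and 6.78% of all isotigs, and the next largest differences were those of paxillus_685 (0.80) and paxillus_4226 (0.75). The median difference was 0.25. The 12 became 6 without MC replicate 3, the array with the divided label, and 7 without MC replicate 2 or without MMN replicate 1 of slide 2, while 16 passed with the MMN cultures as a block and 22 with media levels compared directly. Between CMC and MH, 2 isotigs were called lower in CMC, against 0.729% of all isotigs. They were paxillus_1180 with a difference of -1.19 (SE 0.12, limma adjusted p = 2.8e-06) and paxillus_516 with -1.06 (SE 0.18, limma adjusted p = 0.00032).

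By adjusted p, 17 isotigs were lower in CMC than in MH and only paxillus_937 was higher, by 0.50. Over all isotigs, 13.6% were higher and 10.5% lower. The median difference was -0.24, and 11 passed without CMC replicate 1, CMC replicate 3 or MH replicate 2. In the other direction, 22 passed with the MMN cultures as a block, 23 without MMN replicate 3 of slide 1 and 26 with media levels compared directly. One isotig was called without MMN replicate 2 of slide 1 or MMN replicate 3 of slide 2.

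CMC and FH, the media with the smallest median changes, gave no call in the limma test of their changes against MMN. None of the 59 was called, where 0.237% of all isotigs were, and none passed by adjusted p alone, where 2.50% did. At an unadjusted p under 0.05 there were 20, against 19.3% of all isotigs, and the lowest adjusted p was 0.015, for paxillus_6877, which was higher in CMC by 0.43 (SE 0.10). The median difference was 0.21 and the widest 95% interval reached 0.68 to either side, so differences of that size were not excluded for every isotig. When the MMN arrays with the same number on both slides were treated as shared cultures, 7 passed by adjusted p, against 4.99% of all isotigs. With media levels compared directly, without MMN, 12 passed, and 1 passed with an intensity trend and robust variances or without dim isotigs. Without MMN replicate 3 of slide 2 there were 3, without MC replicate 1 there were 2 and without MMN replicate 2 of slide 1 there was 1.

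**Figure D3:**
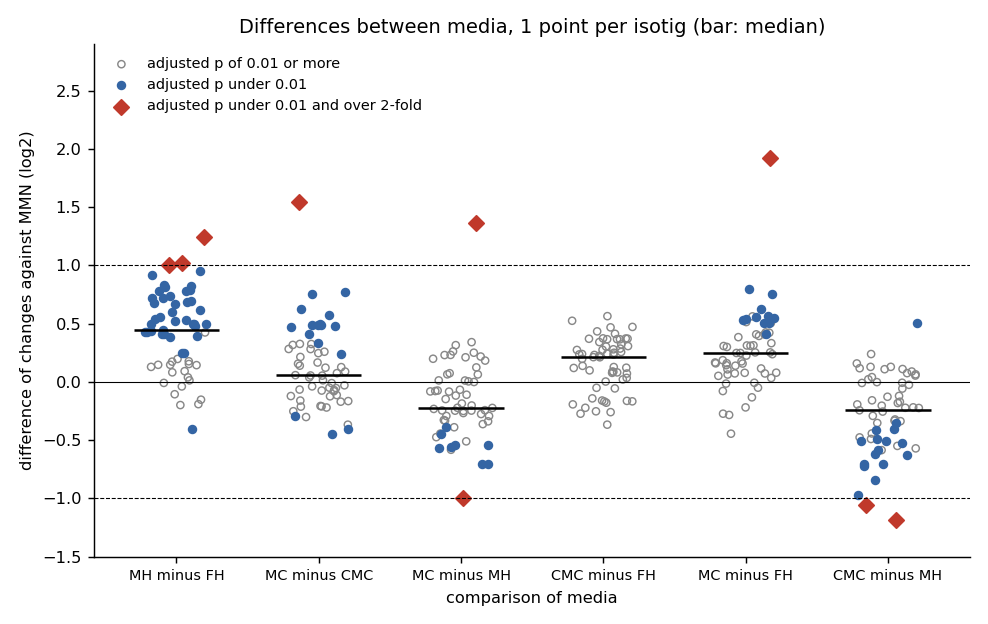
Difference between media for each of the 59 isotigs (log2 scale, vertical axis) in the 6 comparisons (horizontal axis), with 1 point per isotig and a bar at the median. The medians run from -0.24 for CMC minus MH to 0.45 for MH minus FH, and paxillus_11263 stands apart in all 3 comparisons of MC with another medium.

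Counting the 6 comparisons for each isotig, 11 of the 59 passed the adjusted p in none, 22 in 1, 10 in 2, 9 in 3 and 7 in 4, and 0 passed in more. Over all isotigs the shares were 40.4% in none, 23.2% in 1, 13.0% in 2, 17.8% in 3 and 4.07% in 4. The 7 were paxillus_11263, paxillus_1180, paxillus_4226, paxillus_5498, paxillus_7334, paxillus_8637 and paxillus_9843. The 11 with none were paxillus_4, paxillus_220, paxillus_336, paxillus_962, paxillus_1770, paxillus_5055, paxillus_5559, paxillus_7073, paxillus_7280, paxillus_12637 and paxillus_12752. Their largest difference between any pair of media ran from 0.09 to 0.47.

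The most even of all was paxillus_5055. It read 13.60, 13.56 and 13.51 in FH, 13.47, 13.59 and 13.66 in MH, 13.63, 13.68 and 13.71 in MC, and 13.72, 13.70 and 13.63 in CMC. The 12 values lay within a span narrower than that of its own controls, at 12.29, 11.96 and 12.56 on slide 1 and 12.36, 11.84 and 12.73 on slide 2. The 4 changes were 1.29, 1.30, 1.36 and 1.37. The intervals of its differences reached as far as 0.47 to either side, so a moderate difference between media could not be detected. Similar small spans were seen in paxillus_7073 (1.12 in FH, 1.26 in MH, 1.15 in MC and 1.20 in CMC) and paxillus_962 (1.23, 1.38, 1.30 and 1.37).

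Of the 59 isotigs, 10 formed 5 pairs with neighbouring numbers. Isotigs of one gene can carry neighbouring numbers, as the phenylalanine ammonia lyases paxillus_5484 and paxillus_5485 do in the study, but the genes of these pairs were not identified here, and isotigs that share sequence may share signal. The Pearson r over the 18 arrays was 1.00 for paxillus_3987 and paxillus_3989, 0.99 for paxillus_4980 and paxillus_4981, for paxillus_5025 and paxillus_5026 and for paxillus_5695 and paxillus_5696, and 0.96 for paxillus_4866 and paxillus_4868. These values cover the arrays on which all 59 were chosen for the same changes, and the 1706 other pairs within the list had a median r of 0.96, so a high r does not set the neighbours apart. Over deviations from the group means, which the rule did not use, r was 0.64 to 0.92 for the 5 pairs, and the other pairs had a median of 0.57 and a range from -0.68 to 0.97. Some pairs also had the same medium at the top or the bottom. The order is read from the same changes that the rule cut, and shared orders were not counted among the other pairs. Nothing is concluded from it. Both paxillus_5695 and paxillus_5696 had their highest change in MC (2.03 and 2.09) and their lowest in CMC (1.46 and 1.59), while paxillus_4980 and paxillus_4981 had their lowest in MC (1.24 and 1.09). For paxillus_3987 the changes were 1.41 in FH, 1.86 in MH, 1.64 in MC and 1.36 in CMC, and for paxillus_3989 they were 1.63, 2.16, 1.77 and 1.45, the same order of media at a higher level. Both paxillus_5025 (1.54, 2.04, 1.70 and 1.92) and paxillus_5026 (1.64, 2.07, 1.51 and 1.72) were highest in MH but had their lowest change in different media.

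By r over the 18 arrays, the pair paxillus_4866 and paxillus_4868 was the least alike. Over the deviations its r was 0.74, and the lowest was 0.64, for paxillus_4980 and paxillus_4981. Changes of paxillus_4866 were 1.15 in FH, 1.56 in MH, 1.31 in MC and 1.61 in CMC, and those of paxillus_4868 were 1.17, 1.98, 1.74 and 1.49, with different media at the top. Outside the list, 98 isotigs were numbered 1 away from a listed one. Of these, 11 (11.2%) reached the threshold in at least 1 medium, against 5.46% of all isotigs, and the listed isotigs themselves are left out of the first share and counted in the second.

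The controls of the 59 isotigs had an order that was compared with all isotigs only, not with isotigs raised in fewer media. The rule used only the mean of the MMN arrays, not their order, but a low array lowers that mean and helps an isotig pass. Without replicate 2 on both slides, 11 of the 59 fell below the threshold, so the counts for replicate 2 are not independent of the choice. Replicate 3 is ranked and measured against replicate 2 among others, so its counts and differences are not independent of the choice either. MMN replicate 3 was the highest of the 3 arrays for 48 of the 59 on slide 1 and 49 on slide 2, against 34.1% and 33.4% of all isotigs. MMN replicate 2 was the lowest for 47 and 48, against 34.8% and 32.4%. On both slides at once, replicate 3 was highest for 44 of the 59 and for 21.3% of all isotigs, and replicate 2 was lowest for 42 of the 59 and for 17.5% of all isotigs. The MMN arrays carry the same replicate numbers on both slides and were taken to come from the same 3 cultures, so the slides are not independent of each other here, and isotigs that move together are not independent either.

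Replicate 3 exceeded the mean of replicates 1 and 2, over both slides, by a median of 0.26, with a range from -0.12 to 0.91, whereas the median over all isotigs was -0.02. It was above 0 for 52 of the 59. A difference of at least 0.5 was found for 10 of the 59 and for 34 isotigs in the whole array. The widest was that of paxillus_12752, with MMN levels of 12.07, 11.69 and 12.70 on slide 1 and 11.71, 11.19 and 12.44 on slide 2. Its levels in the test media had almost no spread, at 13.72, 13.63 and 13.69 in FH and 13.78, 13.75 and 13.75 in MH, for example. On both slides MMN replicate 3 was thus clearly above the other controls and still below every array of the media. Next came paxillus_12637 with 0.72 and paxillus_316 with 0.66, and the lowest was paxillus_7280 with -0.12.

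The spread within groups gives the same picture. The median SD of the 59 was 0.17 in MMN on either slide, compared with 0.08 and 0.07 for all isotigs, but 0.07 in FH and 0.05 in MH, where all isotigs had 0.07. In MC it was 0.10 and in CMC 0.08, against 0.07 and 0.06. The arrays within these media also had an order. MC replicate 1 was the lowest for 48 of the 59, against 35.5% of all isotigs. CMC replicate 2 was the highest for 44 of the 59, against 36.8%, and FH replicate 3 the lowest for 37, against 32.7%. The part of the culture, the harvest or the labelling in this order was not tested.

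The size of the changes depended on which MMN cultures were used as the control, while the order of their medians did not. Without replicate 3 on both slides, the median changes of the 59 were 1.45 in FH, 1.85 in MH, 1.71 in MC and 1.58 in CMC, and 76 isotigs passed in all 4 media, of which 58 were in the list. Without replicate 2, the medians were 1.21, 1.71, 1.54 and 1.44, and 51 isotigs passed, 48 of them in the list. Without replicate 1, 59 passed, 57 of them in the list.

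**Figure D4:**
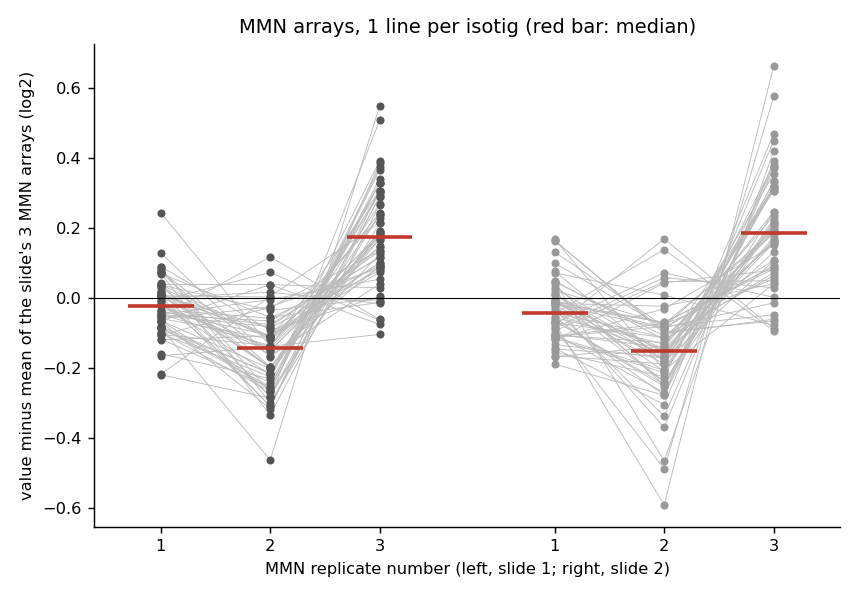
Deviation of each MMN array from the mean of its slide (log2 scale, vertical axis) for the 59 isotigs, by replicate number (horizontal axis) and slide, with 1 point per isotig and bars at the medians. The medians were -0.02, -0.14 and 0.17 on slide 1 and -0.04, -0.15 and 0.18 on slide 2, the same order on both slides.

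Between slides, the MMN means differed little. Slide 2 minus slide 1 ran from -0.37 to 0.30 with a median of -0.02, the same as over all isotigs, and was at most 0.2 in size for 50 of the 59. In the limma fit none of the 59 was called between the slides, where 0.0901% of all isotigs were, and none passed by adjusted p alone, where 8.13% did. There were 11 at an unadjusted p under 0.05, against 34.8% of all isotigs, with the lowest adjusted p, 0.020, for paxillus_5757, whose MMN mean was higher by 0.30 on slide 2. With the MMN cultures taken as shared between slides, 9 passed by adjusted p, against 29.1% of all isotigs. The median SD of the 59 in MMN was 0.17 on either slide, against 0.08 and 0.07 for all isotigs. A slide difference of the same size was thus harder to detect for the 59, and these shares do not show steadier controls. With an intensity trend and robust variances 1 passed, and without dim isotigs 2 did. There was 1 without MC replicate 1, MC replicate 3 or MMN replicate 2 of slide 1.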

How the data were processed

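The authors deposited log2 expression values per isotig and array, made by RMA, which corrects background, normalizes across arrays and summarises probes, and whose version is not given in the sources used here, with the number of probes beside them. The log base was taken as 2, because with a natural log 63.5% to 66.3% of isotigs, depending on the array, would exceed the 16-bit limit of 65535. On a natural log, the threshold of 1 would be 2.72-fold. The titles gave the groups, also for the MMN arrays of slide 2, whose medium label holds the strain. The row of random control probes was left out of the fits.

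Changes are differences of mean log2 values. Tests used limma 3.58.1 in R 4.3.3 (lmFit, eBayes, 6 group means, 18 arrays, 12 residual and 5.35 prior degrees of freedom), tested on simulated data first. The number of arrays limits the precision. The call thresholds follow the legend of the study's expression figure. The isotigs and the comparisons were chosen with earlier results of these data known.

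Named isotigs are the 10 with the highest smallest change, the 3 highest in each medium, those called with the largest differences (2 in each direction of a comparison), the 3 most even, the 3 with the widest MMN spread, neighbouring numbers, and the 3 on each side of the threshold. Others, such as paxillus_7977, paxillus_9843, paxillus_937, paxillus_6877, paxillus_220 and paxillus_1592, were named after their values were seen.

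Pairing was checked with deviations from group means: same-numbered MMN arrays of both slides correlated at 0.26 to 0.49, each best with its own number, and no pair of media did so throughout. Alternatives were other averages, normalization, filters, blocks and leaving out each array. No sample column of another series was present.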

Additional observations from a re-analysis of the deposited data

How the results depend on the processing

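With 3 arrays a group, calls near the 2-fold threshold are the least certain. On a natural log reading, 222 isotigs instead of 59 passed 2-fold in all media. Leaving out 1 array gave 52 to 69 isotigs, and leaving out 1 MMN number on both slides, an alternative added after the data were seen, gave 51 to 76. In all, 46 of the 59 stayed past the threshold without any single array and 13 fell below it without at least 1. Averaging MMN over both slides gave 66 isotigs, 55 of them in the list. Dropping the fold threshold gave 40 isotigs for MH and FH, 17 for MC and CMC, 10 for MC and MH, 12 for MC and FH and 18 for CMC and MH. Repeated quantile normalization called 1 for MH and FH and 1 for MC and MH. Media levels compared directly, without MMN, called 1 for MC and MH and 1 for CMC and MH. Leaving out 1 array called 1 to 3 for MH and FH, 1 to 1 for MC and CMC, 1 to 2 for MC and MH, 0 to 0 for CMC and FH, 1 to 1 for MC and FH, 1 to 3 for CMC and MH and 0 to 0 between the MMN slides. The cause of these moves was not tested. The media share only replicate numbers, and with the number as a block the calls were 3, 1, 2, 0, 1 and 2 in the order above and 0 between the MMN slides, the same counts as without the block. Changes of named isotigs were recomputed with MMN averaged over both slides, and as the lowest and highest value from leaving out 1 array. Of these 432 values, 412 moved by less than the replicate SD, 20 by more, and 0 reversed. Leaving out 1 of 3 arrays cannot move a mean by its SD, so the leave-one-out values had to count as unmoved. All 20 came from averaging MMN over both slides.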

Other observations

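The isotig numbered just before paxillus_12752 lay outside the list. The changes of paxillus_12751 were 0.79 in FH, 0.86 in MH, 0.98 in MC and 0.88 in CMC, below the threshold in all 4 media, and its levels over the 18 arrays correlated with those of paxillus_12752 at a Pearson r of 0.96. Near paxillus_1575, paxillus_1573 missed the threshold only in FH, with 0.85 in FH, 1.40 in MH, 1.25 in MC and 1.11 in CMC and a Pearson r of 0.97 with paxillus_1575. Both were noticed after their values were seen, and whether they belong to the same genes as their neighbours was not tested. In the opposite direction, paxillus_8 lies 2 numbers away from paxillus_10 and had changes of -0.65 in FH, -0.86 in MH, -0.55 in MC and -0.57 in CMC, which were not tested.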
